A study of Mus musculus with 8 samples.

Results

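The miRNAs described here are those of the imprinted Dlk1-Dio3 locus on mouse chromosome 12, measured in the serum of irradiated and non-irradiated mice. They were chosen by name, as every mouse miRNA on the array whose number is among 41 numbers that belong to the locus, with any letter suffix and either arm of the hairpin, and no measured value entered that choice. All 41 numbers were found, which gave 88 miRNAs of the 1881 on the array, from 45 hairpins of which 43 had both arms measured. The samples were total RNA from 8 sera of male C57BL/6NJcl mice aged 8 weeks, an inbred strain. In all, 4 sera carried the label 0 Gy (no irradiation) and 4 the label 7 Gy (whole-body X-rays), and the irradiated sera on the arrays were those drawn 72 h after exposure, per the text of the study. The time of the 0 Gy sera is not given in the sources used here.

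A hairpin precursor is cut into a duplex, and its 5p or 3p arm is loaded into Argonaute, where the bases called the seed choose the messenger RNAs to be repressed. In the Dlk1-Dio3 domain the protein-coding genes Dlk1, Rtl1 and Dio3 are expressed from the paternal chromosome, whereas the long non-coding RNAs Meg3, Rian and Mirg and the miRNAs are expressed from the maternal one. The miRNAs lie in an upstream set near Meg3 and antisense to Rtl1, and in a downstream array, the miR-379 to miR-410 cluster. They are known from embryo, placenta, stem cells and adult brain, so that serum is a compartment into which they have to be released.

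The mature sequences below are those on which the results turn, namely the 12 members with a detection call on at least 5 of the 8 arrays and miR-758-5p, which was called at 1 dose only. They come from RefSeq on GRCm38.p6, all on the plus strand of chromosome 12. Bases 2 to 8, the seed, are in capitals.

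miR-770-3p (chr12:109563744-109563765): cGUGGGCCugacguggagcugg
miR-127-3p (chr12:109592888-109592909): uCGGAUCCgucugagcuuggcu
miR-434-3p (chr12:109594565-109594586): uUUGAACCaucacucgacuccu
miR-370-3p (chr12:109618305-109618326): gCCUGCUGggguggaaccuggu
miR-758-5p (chr12:109712823-109712843): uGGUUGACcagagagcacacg
miR-494-3p (chr12:109715367-109715388): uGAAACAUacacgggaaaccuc
miR-376a-3p (chr12:109723824-109723844): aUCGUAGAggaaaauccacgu
miR-300-5p (chr12:109724318-109724339): uUGAAGAGagguuauccuuugu
miR-300-3p (chr12:109724363-109724384): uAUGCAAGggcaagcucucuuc
miR-382-5p (chr12:109733781-109733802): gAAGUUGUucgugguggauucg
miR-134-5p (chr12:109734145-109734166): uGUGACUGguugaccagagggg
miR-668-3p (chr12:109734774-109734797): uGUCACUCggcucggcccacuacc
miR-409-3p (chr12:109743204-109743225): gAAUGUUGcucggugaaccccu

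Of the 88 members, 84 matched an entry of the sequence table, and miR-376c-3p, miR-485-5p, miR-487b-3p and miR-539-3p are named only. No seed was common to any of the 13 sequences shown. Among the matched members 4 pairs had the same seed: miR-379-3p with miR-411-3p, miR-299a-3p with miR-299b-3p, miR-410-5p with miR-494-5p, and miR-376b-5p with miR-376c-5p, and none of these was detected on any array. By position 83 of the 84 lay between Dlk1 (chr12:109452485-109463336) and Dio3 (chr12:110279230-110281097). The exception was miR-496b, which the name rule includes although the annotation places it on chromosome 19, and which was not detected on any array.

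All 8 arrays shared 1 slide, scanned on 1 day, with 30 ng of RNA labelled for each and 30 spots for each miRNA. The number of miRNAs called detected ranged from 531 to 603 on the 0 Gy arrays and from 378 to 687 on the 7 Gy arrays. The labelling spike-in, an RNA added before the dye reaction, read 2.73 to 3.68 on the log10 scale at 0 Gy and 1.95 to 3.35 at 7 Gy, and it was out of its range on irradiated replicates 1, 3 and 4. Columns 1 and 2 of the slide held the 0 Gy arrays and columns 3 and 4 the 7 Gy arrays, and column and dose cannot be told apart. As a check of the source, miR-451a and miR-486a-5p of red cells and miR-223-3p of myeloid cells were detected on all 8 arrays. The red-cell miR-144-3p and miR-16-5p, miR-126a-3p of endothelium and platelets and the liver miR-122-5p were detected on all 4 arrays at 0 Gy and on 1 at 7 Gy. Of the brain list miR-124-3p and miR-9-5p were detected on no array, miR-138-5p on 5 and miR-128-3p, which other tissues also express, on all 8. Of the muscle list miR-133a-3p was detected on all 8, and miR-1a-3p and miR-206-3p on 3 arrays at 0 Gy and 1 at 7 Gy. The labels number the sera within each dose, and the p-values below measure the spread between these 8 sera only.

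A minority of the locus miRNAs was seen in serum. A detection call, made by the scanner software where a miRNA's signal stands above its own error, was given to 26 of the 88 on at least 1 array (29.5%), against 804 of all 1881 miRNAs (42.7%). Of these 26, 18 were detected on at least 3 arrays and 3 on all 8, namely miR-494-3p, miR-370-3p and miR-134-5p. The other 62 were detected on no array.

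The calls were spread unevenly over the hairpins. The 3p arm was called for 18 of 44 members and the 5p arm for 8 of 43. Calls by arm were not counted over all miRNAs, so that this difference is not shown to be particular to the locus. Both arms of a hairpin were detected for 4 hairpins (miR-127, miR-136, miR-300 and miR-434), 1 arm for 18 and neither arm for 23. The 23 hairpins without a call were miR-299a, miR-299b, miR-323, miR-369, miR-376b, miR-379, miR-380, miR-411, miR-412, miR-431, miR-433, miR-485, miR-487b, miR-493, miR-495, miR-496a, miR-496b, miR-539, miR-540, miR-541, miR-543, miR-544 and miR-673.

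Detected members occurred in each of the groups that make up the locus, which were set here by miRNA name. Of the group antisense to Rtl1, whose miRNAs are complementary to the Rtl1 messenger and lead to its cleavage, 6 of 10 were detected. Of the group next to Meg3 it was 3 of 12, and of the miR-370 hairpin, which lies within the annotated span of Rian, 1 of 2. The miR-379 to miR-410 cluster, the array best known from neurons, contributed 16 of 64, a number that includes miR-496b by its name only. Counted by annotated span instead, 8 of the 20 members within Rtl1 were detected and 1 of the 2 within Meg3. Most of the group named next to Meg3 thus lies within the span of Rtl1.

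**Figure D1:**
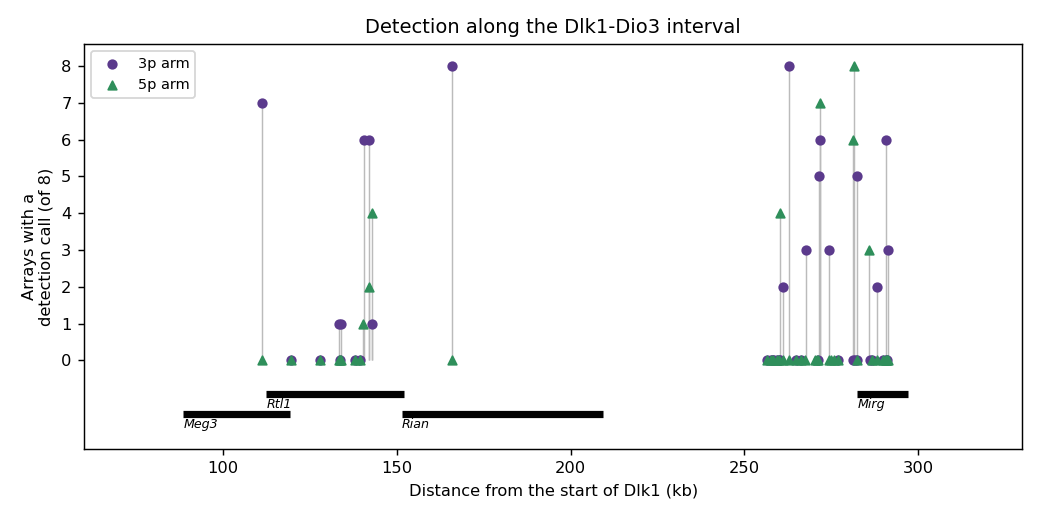
Number of arrays (of 8) on which each member was called detected, against its distance in kb from the start of Dlk1, for the 83 members placed between Dlk1 and Dio3. Circles are 3p arms, triangles 5p arms, and black bars the annotated spans of Meg3, Rtl1, Rian and Mirg. The members with 8 calls are miR-370-3p within Rian and miR-494-3p and miR-134-5p within the miR-379 to miR-410 cluster.

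Base composition was compared as well. The median G+C content was 47.7% over the 84 matched members and 52.2% over the 1608 of 1881 mouse miRNAs with a sequence. It was 47.6% for the 59 matched members with no call, 45.5% for the 11 with 1 to 3 calls and 52.3% for the 14 with 4 or more.

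On each array the share of the locus called detected lay below the share of all miRNAs. On the 0 Gy arrays, in the order of replicates 1 to 4, 20, 15, 11 and 12 members were detected, and on the 7 Gy arrays 8, 21, 6 and 17. The means were 14.5 ± 4.04 at 0 Gy and 13.0 ± 7.16 at 7 Gy (SD, n = 4 each). The difference of -1.5 was smaller than either spread, and the groups overlapped. Irradiated replicate 2 had the most calls of all 8 arrays and irradiated replicate 3 the fewest.

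Irradiated replicates 1 and 3 had few calls over the whole array. Of all miRNAs 20.1% were called on each of these 2 arrays, against 28.2% to 36.5% on the other 6, and their scale factors were 4.33 and 4.63 against 0.379 to 1.06. Of the 18 members detected on at least 3 arrays, 9 were absent from both, as were 238 of the 633 miRNAs detected that often. Median G+C content of the members called was 62.2% on irradiated replicate 1 and 58.1% on replicate 3, and 45.5% to 54.5% on the other 6 arrays. Over all miRNAs called that had a sequence, it was 59.5% and 60% on these 2 arrays and 54.5% to 59.1% on the other 6. Both arrays were thus highest over all miRNAs too, and the members lay above all called miRNAs on irradiated replicate 1 only. The part of labelling in these calls was not tested. In a serum, fewer releasing cells and less release per cell cannot be told apart either.

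**Figure D2:**
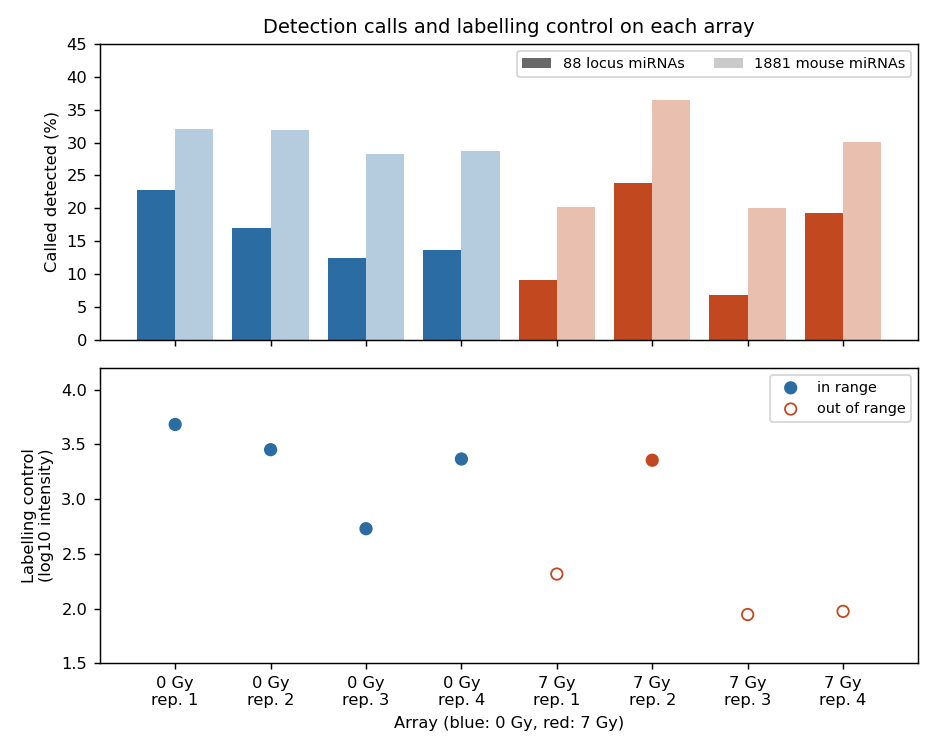
Upper panel, percentage of the 88 locus miRNAs (solid bars) and of all 1881 mouse miRNAs (pale bars) called detected on each array. Lower panel, labelling spike-in signal in log10 intensity, with open circles where it was out of range. The solid bars run from 6.82% on irradiated replicate 3 to 23.9% on irradiated replicate 2, the one irradiated array with its labelling control in range.

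As calls differ in strength, the signals were compared next. Scaling brought the 90th percentile of the 8 arrays to 1 value, and all signals below are scaled intensities unless they are said to be unscaled. For the test, values under 100 were set to 100, and a miRNA had to be detected on at least 3 arrays and to exceed that floor on at least 1. Only miR-494-3p of the 88 members met both conditions. With the floor at 1, chosen after seeing that nearly all members lay under 100, 18 members could be tested.

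**Figure D3:**
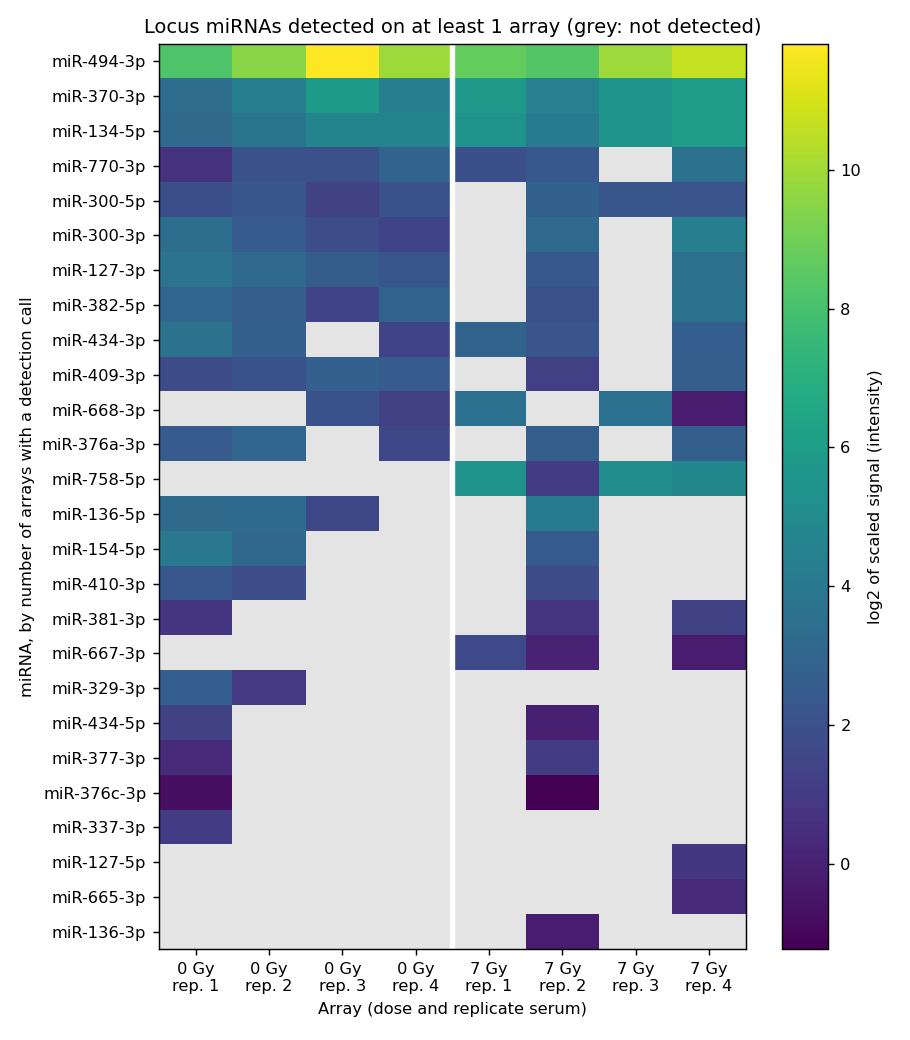
Scaled signal (log2 intensity, colour) of the 26 members called detected on at least 1 array, one row per miRNA and one column per array, with grey for not detected. Rows are ordered by the number of arrays with a call, and the white line parts 0 Gy from 7 Gy. The upper 3 rows are filled on all 8 arrays, miR-758-5p is filled only at 7 Gy, and irradiated replicates 1 and 3 are grey in most of the other rows.

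MiR-494-3p, from the miR-379 to miR-410 cluster, was the one member well above the floor on every array. On the 0 Gy arrays its scaled signals were 294, 709, 3596 and 968, against 427, 322, 942 and 1651 on the 7 Gy arrays. The highest and the lowest value both belonged to the 0 Gy group, within which the signal differed more than between the doses.

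The mean signal of miR-494-3p was 1392 ± 1496 at 0 Gy and 835 ± 607 at 7 Gy (SD, n = 4 each). The log2 fold change of 7 Gy over 0 Gy was -0.44 (SE 0.85, 95% confidence interval -2.44 to 1.56), with an adjusted p of 0.719 in limma and p = 0.686 in a two-sided exact permutation test. Within slide rows 1 and 2, each of which holds both doses, the change was -0.30 and -0.58. No member was called in either direction at this floor or at an unadjusted p under 0.05, beside 1.92% of the 208 miRNAs tested called higher and 1.92% called lower. Before adjustment these shares were 22.1% and 7.69%.

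Without 0 Gy replicate 3, the array with the signal of 3596, the log2 fold change of miR-494-3p turned to 0.21, and with the labelling spike-in as a covariate it was -2.22 (adjusted p = 0.194 in limma). Both of its probes followed the same order of arrays, with mean unscaled spot signals of 8043 and 4060 on that array against 311 and 154 on irradiated replicate 1.

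Since miR-494-3p gave most of the locus signal, the sum over the 88 members followed it. The members together made up 0.249%, 0.661%, 2.43% and 1.01% of an array's summed signal at 0 Gy and 0.450%, 0.484%, 0.650% and 1.57% at 7 Gy. Of the signal of the members called detected, miR-494-3p gave a median of 86.7% over the 8 arrays and at most 96.8%. These are shares of fluorescence, which differs between probes, and not of molecules.

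Without miR-494-3p the members' share was 0.0758%, 0.0903%, 0.0822% and 0.0888% at 0 Gy, against 0.146%, 0.134%, 0.105% and 0.212% at 7 Gy. This share counts the 0.1 entered for each member not called, which weighs most where the summed signal is low. With these entries the doses did not overlap, and the difference of the means was 0.0652 percentage points. Over called members alone, irradiated replicate 3 lay among the 0 Gy arrays. The sum without miR-494-3p was chosen after the values had been seen, and it was given no test. The total by which each share was divided is the summed signal of the array, nearly all of it from miRNAs outside the locus.

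MiR-134-5p, a brain miRNA known for limiting dendritic spine size through Limk1, was detected on every array. On the 0 Gy arrays its scaled signals were 9.80, 14.5, 25.4 and 25.5, against 44.7, 17.8, 46.0 and 68.9 on the 7 Gy arrays. Irradiated replicates 1, 3 and 4 lay above all 0 Gy arrays, whereas replicate 2 lay among them.

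The mean of miR-134-5p was 18.8 ± 7.92 at 0 Gy and 44.4 ± 20.9 at 7 Gy (SD, n = 4 each), a log2 fold change of 1.20 (SE 0.63) at the floor of 1. It did not pass the test, with an adjusted p of 0.246 in limma and p = 0.0857 in the exact permutation test. Unscaled, its signals were 25.1, 32.0, 23.9 and 27.4 at 0 Gy, against 10.3, 47.0, 9.94 and 91.2 at 7 Gy. On this scale irradiated replicates 1 and 3 lay below and replicates 2 and 4 above every 0 Gy array, and the log2 fold change was -0.065. With the labelling spike-in as a covariate it was 0.094.

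MiR-370-3p, the only miRNA of its hairpin that was detected, was called on every array as well. On the 0 Gy arrays the scaled signals were 10.7, 20.3, 59.0 and 20.3, against 54.7, 21.8, 46.0 and 65.4 on the 7 Gy arrays. The doses overlapped, and 0 Gy replicate 3 lay above 3 of the 4 irradiated arrays.

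Its log2 fold change at the floor of 1 was 0.95 (SE 0.67, adjusted p = 0.366 in limma), and the exact permutation test gave p = 0.229. Unscaled the change was -0.32, and so it was with the labelling covariate.

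**Figure D4:**
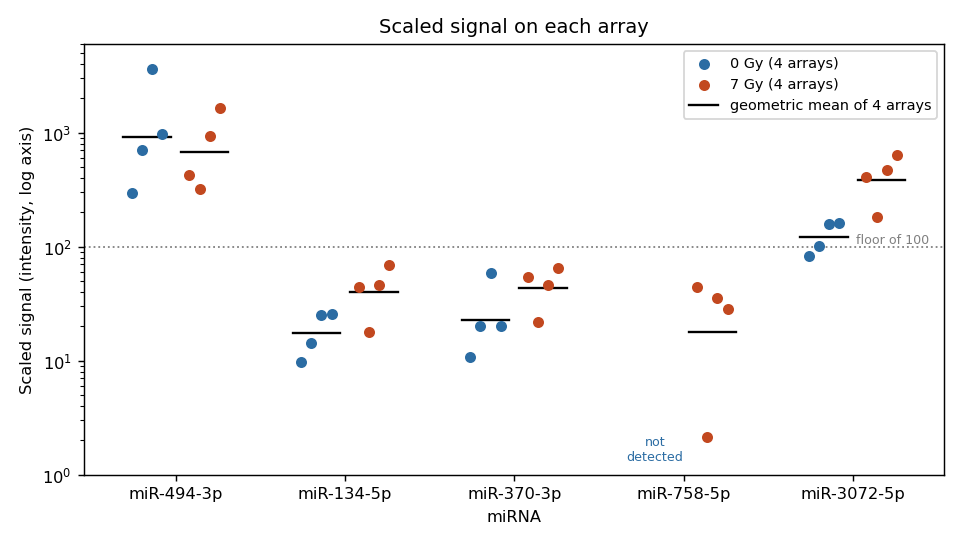
Scaled signal (intensity, log axis) of miR-494-3p, miR-134-5p, miR-370-3p and miR-758-5p, and of miR-3072-5p from the same locus, on each of the 4 arrays at 0 Gy (blue) and 7 Gy (red). Black lines are geometric means of 4 arrays and the dotted line the floor of 100. MiR-494-3p overlaps between the doses over a wide range, miR-758-5p has points at 7 Gy only, and miR-3072-5p has no overlap.

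MiR-758-5p, from the upstream end of the miR-379 to miR-410 cluster, was the one member with a call on all 4 irradiated arrays and on no 0 Gy array. It and the other miRNA with this pattern are named because of their values. Its scaled signals were 44.8, 2.14, 35.6 and 28.7 at 7 Gy, and unscaled 10.3, 5.66, 7.70 and 38.0. Of all 1881 miRNAs 2 showed this pattern of calls (0.106%), the other being miR-7081-5p, and 0 showed the opposite.

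The spots behind these calls were read probe by probe. On the first probe of miR-758-5p the mean unscaled spot signals were -2.26, -0.323, 1.41 and -1.42 at 0 Gy, against 25.0, 9.60, 18.6 and 68.2 at 7 Gy. The second probe read 0.220, -0.625, 1.73 and -0.321 at 0 Gy and 23.7, 10.5, 17.7 and 66.4 at 7 Gy. Without any scaling, and for either probe, each irradiated array exceeded each array at 0 Gy. The calls for which miR-758-5p was named were made from these same spots, so that this is no independent support. Of the 15 spots of each probe, none was well above background at 0 Gy, and on irradiated replicate 2 only 2 spots of the first probe and 4 of the second were.

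As miR-758-5p was not detected at 0 Gy, no fold change could be measured. Its geometric mean over the 4 irradiated arrays was 22.2 times that of the lowest signals called for any miRNA on the 0 Gy arrays on the scaled values, and 9.25 times unscaled. The limit of detection of miR-758-5p itself is not known, and with a floor of 1 in its place the ratio was 17.7. In limma at that floor the adjusted p was 0.0549. MiR-758-5p entered the fit only through its calls at 7 Gy and is described for that pattern, so that this p is no independent support. Groups did not overlap in the same direction for 7.45% of the 631 miRNAs tested.

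Irradiated replicate 2, the array with its labelling control in range, had the lowest miR-758-5p signal of the 4. The spike-in was out of range on the other 3 irradiated arrays, and fitted beside it the log2 fold change of miR-758-5p was 2.24 in place of 4.15. The part of labelling in the signal of miR-758-5p was not tested further.

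MiR-758-5p and miR-134-5p have 13 consecutive bases in common, UGGUUGACCAGAG, which start at base 1 of miR-758-5p and at base 7 of miR-134-5p. This was the longest run that miR-758-5p had in common with any of the 1607 other miRNAs with a sequence. The next were 11 bases with miR-6382 and 10 with miR-380-5p, both without a call on any array. As the run starts at different bases, the seeds differ (GGUUGAC in miR-758-5p and GUGACUG in miR-134-5p).

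The signals of the pair were therefore set side by side. On the 0 Gy arrays the 4 probes of miR-134-5p had mean unscaled spot signals between 23.1 and 69.5, while those of miR-758-5p lay between -2.26 and 1.73. On irradiated replicates 1 and 3 the miR-134-5p probes read 14.7 to 30.3, lower than at 0 Gy for each probe, and miR-758-5p was detected there. Cross-hybridisation between them was not tested beyond these values.

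**Figure D5:**
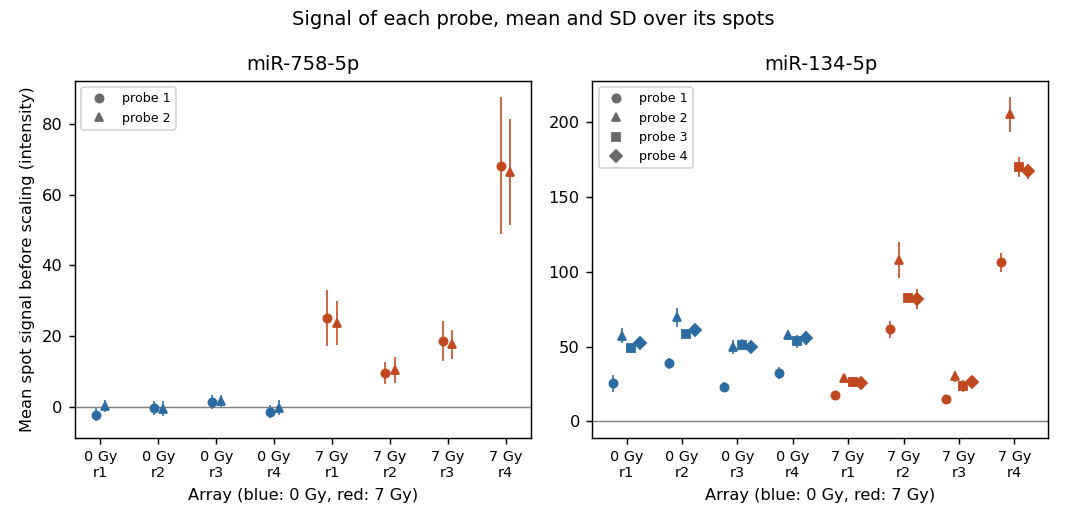
Mean unscaled spot signal (intensity) of each probe of miR-758-5p (left, 2 probes) and miR-134-5p (right, 4 probes) on each array, with bars for the SD over the probe's spots, which are technical repeats on 1 array. MiR-758-5p lies near 0 on the 0 Gy arrays and above 9 on all irradiated arrays. MiR-134-5p has signal at both doses and is lowest on irradiated replicates 1 and 3.

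The miRNAs antisense to Rtl1 were weak and missing from part of the arrays. MiR-127-3p read 13.6, 9.48, 6.09 and 4.78 at 0 Gy and 5.14 and 11.9 on irradiated replicates 2 and 4, with no call on irradiated replicates 1 and 3. MiR-434-3p read 12.9, 6.85 and 2.66 on 0 Gy replicates 1, 2 and 4 and 7.62, 4.70 and 6.47 on irradiated replicates 1, 2 and 4. MiR-136-5p was called on 3 arrays at 0 Gy and 1 at 7 Gy, with scaled signals from 2.99 to 18.3. The called values of the doses overlapped for miR-127-3p and miR-434-3p, whereas the single call of miR-136-5p at 7 Gy was its highest value.

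Of the 9 members called on all 4 of the 0 Gy arrays, 6 were missing from at least 1 irradiated array, as were 134 of the 445 miRNAs called on all 4 over the whole table. MiR-300-3p read 11.2, 5.58, 3.59 and 2.67 at 0 Gy and 9.46 and 20.1 on irradiated replicates 2 and 4. MiR-382-5p read 8.00, 6.51, 2.67 and 7.65 at 0 Gy and 3.98 and 13.1 on the same irradiated arrays. MiR-409-3p read 3.50, 4.15, 6.94 and 5.78 at 0 Gy and 2.37 and 6.70 there. All 3 had no call on irradiated replicates 1 and 3, the arrays with the fewest calls over all miRNAs.

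MiR-300-5p and miR-770-3p were each missing from 1 array. MiR-300-5p read 3.80, 4.77, 2.53 and 4.23 at 0 Gy and 7.11, 4.86 and 4.56 on irradiated replicates 2, 3 and 4. MiR-770-3p, from within Meg3, read 1.59, 4.02, 3.98 and 7.60 at 0 Gy and 3.89, 5.20 and 12.3 on irradiated replicates 1, 2 and 4. For both, the irradiated values overlapped those at 0 Gy.

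MiR-376a-3p, a miRNA whose precursor is edited from A to I in brain, read 5.72, 8.27 and 3.06 on 0 Gy replicates 1, 2 and 4 and 6.61 and 6.54 on irradiated replicates 2 and 4. MiR-668-3p was called on 2 arrays at 0 Gy and 3 at 7 Gy, with 4.22 and 2.37 on 0 Gy replicates 3 and 4 and 11.6, 11.4 and 0.875 on irradiated replicates 1, 3 and 4. Unscaled it read 3.97 and 2.55 at 0 Gy and 2.68, 2.46 and 1.16 at 7 Gy. There no irradiated array exceeded the highest 0 Gy value. For each of its 4 probes at most 1 spot was well above background on any array, whether called or not.

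The remaining detected members were called on 3 arrays or fewer. MiR-154-5p, miR-381-3p, miR-410-3p and miR-667-3p were called on 3 arrays each, with scaled signals between 0.843 for miR-667-3p and 15.9 for miR-154-5p. MiR-329-3p, miR-376c-3p, miR-377-3p and miR-434-5p were called on 2 arrays, and miR-127-5p, miR-136-3p, miR-337-3p and miR-665-3p on 1. Of these, 5 (miR-136-3p, miR-337-3p, miR-376c-3p, miR-377-3p and miR-434-5p) were called on 0 Gy replicate 1, on irradiated replicate 2 or on both and nowhere else, and these are the arrays with the most calls at each dose. That was 5.68% of the 88 members, beside 71 of all 1881 miRNAs (3.77%).

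Over the 18 members tested at the floor of 1, the median log2 fold change was -0.24, with 7 above and 11 below 0, beside a median of 0.47 over all 631 miRNAs tested. A miRNA without a call on an array stands at the floor there. Of the 18 members, 9 had no call on irradiated replicates 1 and 3, the arrays with few calls, as had 238 of the 633 miRNAs detected on at least 3 arrays. None of the 18 passed the adjusted threshold in limma, and 1, miR-758-5p, which entered through its 7 Gy calls alone, was higher at an unadjusted p under 0.05. Over all tested miRNAs at this floor 0.317% were called higher and 0.951% lower, and 13.0% were higher and 13.9% lower before adjustment. By detection calls, 12 members were called on more 0 Gy than 7 Gy arrays, 7 on fewer and 7 on equally many, and over all miRNAs these numbers were 270, 162 and 372.

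Other miRNAs of the same locus, whose numbers are outside the rule, were looked at from a list of 23. At least 1 array detected 7 of them, and 2, miR-3072-5p and miR-1188-3p, on all 8. MiR-3072-5p is annotated within Mirg, at chr12:109747893-109747914, with the sequence:

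miR-3072-5p: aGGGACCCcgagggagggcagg

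The non-irradiated sera gave miR-3072-5p scaled signals of 82.9, 101, 157 and 161, and the irradiated sera 407, 182, 467 and 635, without overlap. Its means were 126 ± 39.6 and 423 ± 187 (SD, n = 4 each). The log2 fold change was 1.61 (SE 0.40) at the floor of 100, and 1.44 and 1.77 within slide rows 1 and 2. It missed the threshold in limma, with an adjusted p of 0.0601. The two-sided exact permutation test gave p = 0.0286, the smallest that 70 arrangements allow. Doses did not overlap in that direction for 6.73% of the 208 miRNAs tested. MiR-3072-5p was picked from the list because of its values, so that these p-values are no independent support.

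Unscaled, miR-3072-5p read 213, 223, 148 and 173 at 0 Gy and 93.9, 481, 101 and 841 at 7 Gy. As for miR-134-5p, irradiated replicates 1 and 3 then lay below all 0 Gy arrays and replicates 2 and 4 above them, and the log2 fold change was 0.44. With the labelling covariate it was 0.70 (adjusted p = 0.275 in limma). In the fit at the floor of 1, 7 of the 23 could be tested, with a median log2 fold change of 0.80, and none passed the adjusted threshold in limma, with 1 higher at an unadjusted p under 0.05.

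For comparison, the imprinted miRNA cluster within Sfmbt2 on chromosome 2, which is expressed from the paternal chromosome, was counted in the same way by the names miR-297, miR-466, miR-467 and miR-669. Of these 61 miRNAs on the array 25 were called on at least 1 array (41.0%), with 14, 12, 2 and 7 on the 0 Gy arrays and 2, 22, 2 and 11 on the 7 Gy arrays. The Dlk1-Dio3 members had their most calls on the same 2 arrays, 0 Gy replicate 1 and irradiated replicate 2.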

How the data were processed

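Serum RNA of 4 non-irradiated and 4 irradiated mice was hybridised by the authors to 1-colour Agilent mouse miRNA arrays. The deposited intensity values are output of Agilent Feature Extraction (version 11.5 per the labels), with background subtracted and the signals of a miRNA's probes summed (0.1 where it was not called detected), and without normalization between arrays. Control probes were left out and no spot was saturated.

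Following the study's methods, scaling set the 90th percentile over 1881 mouse miRNAs equal on all arrays, a floor of 100 was applied, and values were put on the log2 scale. MiRNAs detected on at least 3 of 8 arrays and not at the floor on all 8 were tested across the whole table (208 miRNAs) in R 4.3.3 by limma 3.58.1 (lmFit, eBayes), at a Benjamini-Hochberg adjusted p of 0.05. Because nearly all members lay under that floor, the fit was repeated with a floor of 1 (631 miRNAs). This step was added after seeing the data. The script was tested on simulated data. The exact permutation tests of single values are two-sided over 70 arrangements, and 95% confidence intervals are limma's. With 4 arrays per group the number of arrays limits the precision.

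Signals of every array were to be given for the 12 members with the most detection calls, ties by mean signal, and calls and range for the other members detected on at least 3. MiR-758-5p and miR-3072-5p are given in full because of their values. The members and lists were chosen with earlier results of these data known. Mature sequences and positions are RefSeq's on GRCm38.p6, joined by miRNA name.

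Alternatives of scaling were the 75th percentile, quantile normalization, none, and the mean of the labelling and hybridisation spike-in signals on the log10 scale. Others were floors, spot signals, and normexp on the median spot and background signals. Blocks by replicate number or slide row, the labelling control as covariate, eBayes with trend, the methods' t-test and each array left out were also run.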

Additional observations from a re-analysis of the deposited data

How the results depend on the processing

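In the test at the floor of 100 no member was called in either direction. The same held under its alternatives, some of which lower or drop that floor, with 1 exception. MiR-758-5p was called higher with the mean spot signal, which was floored at 1 (1 member, against 0). Calls over all miRNAs were few and unstable. Against 4 higher and 4 lower, there were 7 and 11 with the 75th percentile, 0 and 0 unscaled, with spike-in scaling, with the labelling covariate and with eBayes with trend, 9 and 19 with a floor of 10, 18 and 8 with slide row as a block, and 1 and 1 with the methods' t-test after adjustment. At the floor of 1 there were 2 higher and 6 lower. There were 4 higher and 9 lower with the mean spot signal, 6 higher and 12 lower with normexp, and 34 higher and 14 lower with the methods' t-test unadjusted. With one array left out the range was 0 to 56 higher and 1 to 14 lower.

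The sera have a replicate number in common, and the deviations of same-numbered sera correlated at -0.34, 0.43, 0.55 and 0.42. Those of differently numbered sera correlated at -0.72 to 0.71, a range that holds the same-number values. The sera were not taken as pairs. With the replicate number as a block 0 miRNAs were called higher and 0 lower.

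The fold change of miR-494-3p turned positive with spike-in scaling (0.24) and without 0 Gy replicate 3 (0.21), within a range of -0.99 to 0.21 over left-out arrays. Unscaled, miR-134-5p turned to -0.065 and miR-370-3p to -0.32, and miR-370-3p was also -0.32 with the labelling covariate. MiR-3072-5p passed with the 75th percentile (0.96, adjusted p = 0.0271), with the slide row block (1.61, adjusted p = 0.0211), and without irradiated replicate 2 (1.97, adjusted p = 0.0044), in limma. It did not with the labelling covariate (0.70, adjusted p = 0.275), unscaled (0.44, adjusted p = 0.776) or in the other alternatives but the methods' t-test before adjustment. The fold change of miR-758-5p, which rests on its 7 Gy calls alone, was 4.15 at the floor of 1. It ranged from 1.38 with a floor of 10 to 5.16 without irradiated replicate 2. Its adjusted p in limma fell under 0.05 in 5 of 17 alternatives. These were the 75th percentile (0.0402), mean spot signal (0.0230), blocks by replicate (0.0185) or slide row (0.0337), and without irradiated replicate 2 (9.7e-05). With the labelling covariate it was 0.458. The p-values of miR-758-5p and miR-3072-5p are no independent support, as both were named because of their values. The difference in members called per array was -1.5 and ranged from -4.17 to 0.83 with one array left out. It was 6.5 on the arrays with labelling in range only, which leaves 1 irradiated array. The members' share of summed signal differed by -0.298 percentage points, and by -0.578 to 0.151 with one array left out. Causes were not tested. The lowest signals called detected limit what can be said of the weakest members.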
